A study of Mus musculus with 4 samples.

Results

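This report describes 10 complement genes among the 36601 genes counted in human immune cells sorted from tumors of humanized mice. The members were taken by symbol: the C1q chains C1QA, C1QB and C1QC, the component C2, the central component C3, the alternative pathway factors CFB, CFD and CFP, and the receptors C3AR1 and C5AR1. Each symbol matched 1 gene. Together the 10 genes held 336972 unique molecular identifiers (UMIs, single counted RNA molecules) in the cells analysed, or 2.30 of every 1000.

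Complement is a cascade of plasma and tissue proteins. In the classical pathway C1q binds antibody or altered surfaces and activates the proteases that cleave C4 and C2, whereas in the alternative pathway factor D cleaves factor B bound to C3b and properdin stabilises the resulting enzyme. Both routes cleave C3 and then C5, releasing the small peptides C3a and C5a, which are sensed by the receptors C3AR1 and C5AR1. The liver supplies most plasma complement, C1q comes mainly from macrophages and some dendritic cells, and tissue macrophages and monocytes transcribe several of the other components.

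The study asked how maraviroc, a small-molecule drug, acts on tumor-infiltrating immune cells. Tumors of MDA-MB-231, an established human breast cancer cell line, were grown in the mammary fat pad of MISTRG mice, which carry human growth factor genes that favour human myeloid cells and had been engrafted soon after birth with human fetal CD34+ cells. Live human CD45+ cells were sorted from the tumors, mice were marked with hashtag antibodies and pooled, and 2 pooled reactions were run, each giving a library of RNA and a library of hashtags. Reaction 1 held 4 untreated and 3 maraviroc mice and reaction 2 held 3 untreated and 4 maraviroc mice, so that each treatment had 7 mice. Treatment was read from the hashtag names in the feature lists, maraviroc was given in the drinking water, and the sex of the mice, their age at tumor injection and the number of stem cell donors were not given in the sources used here. The labels list the mouse as organism, but the counts were made on the human genome GRCh38 and describe human cells in a mouse host, where mouse complement made by host tissue is not seen. All values are RNA levels, and the proteins were not measured.

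Of 37806 barcodes with more than 600 and up to 6000 detected genes and a low mitochondrial share, 19817 carried 1 hashtag and were analysed, 10201 from untreated and 9616 from maraviroc mice. Depth differed between reactions, with a median of 3020 UMIs per cell in reaction 1 and 9691.5 in reaction 2, and 105 of the kept barcode sequences occurred in both reactions. Cells were gated by marker UMIs that included no complement gene, giving 4716 macrophages, 3333 monocytes, 2078 other myeloid cells, 427 cDC2, 127 cDC1 and 78 mature dendritic cells, 66 plasmacytoid dendritic cells (pDC), 77 mast cells, 4876 T and NK cells, 150 B cells and 22 cells with tumor markers only, while 3867 stayed ungated. The macrophage markers summed to 19825 CPM (UMIs of the genes per 1000000 UMIs of the cells) in macrophages and 2651 in monocytes, and the monocyte markers to 1905 and 15774, which the gates themselves set. SPP1 alone held 16170 CPM of the macrophage marker sum in macrophages, while MRC1 stood at 1518 there and at 898 in monocytes. A PTPRC (CD45) UMI was seen in 92.1% of the cells. UMIs are counted at the 3′ end, so levels are not scaled by gene length. Unless stated otherwise a level is the CPM of 1 mouse summed over its cells of a type, mice with under 10 such cells were left out, and values are mean ± SD over mice. Levels given without a range, median, mean or SD over mice, and without a named mouse, are pooled over all cells of the type. Being relative to all UMIs of a cell type, a CPM does not depend on how many cells of that type were caught. The p-values weigh a difference against its variation from mouse to mouse, which in comparisons paired by mouse is that of the within-mouse differences.

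**Figure D1:**
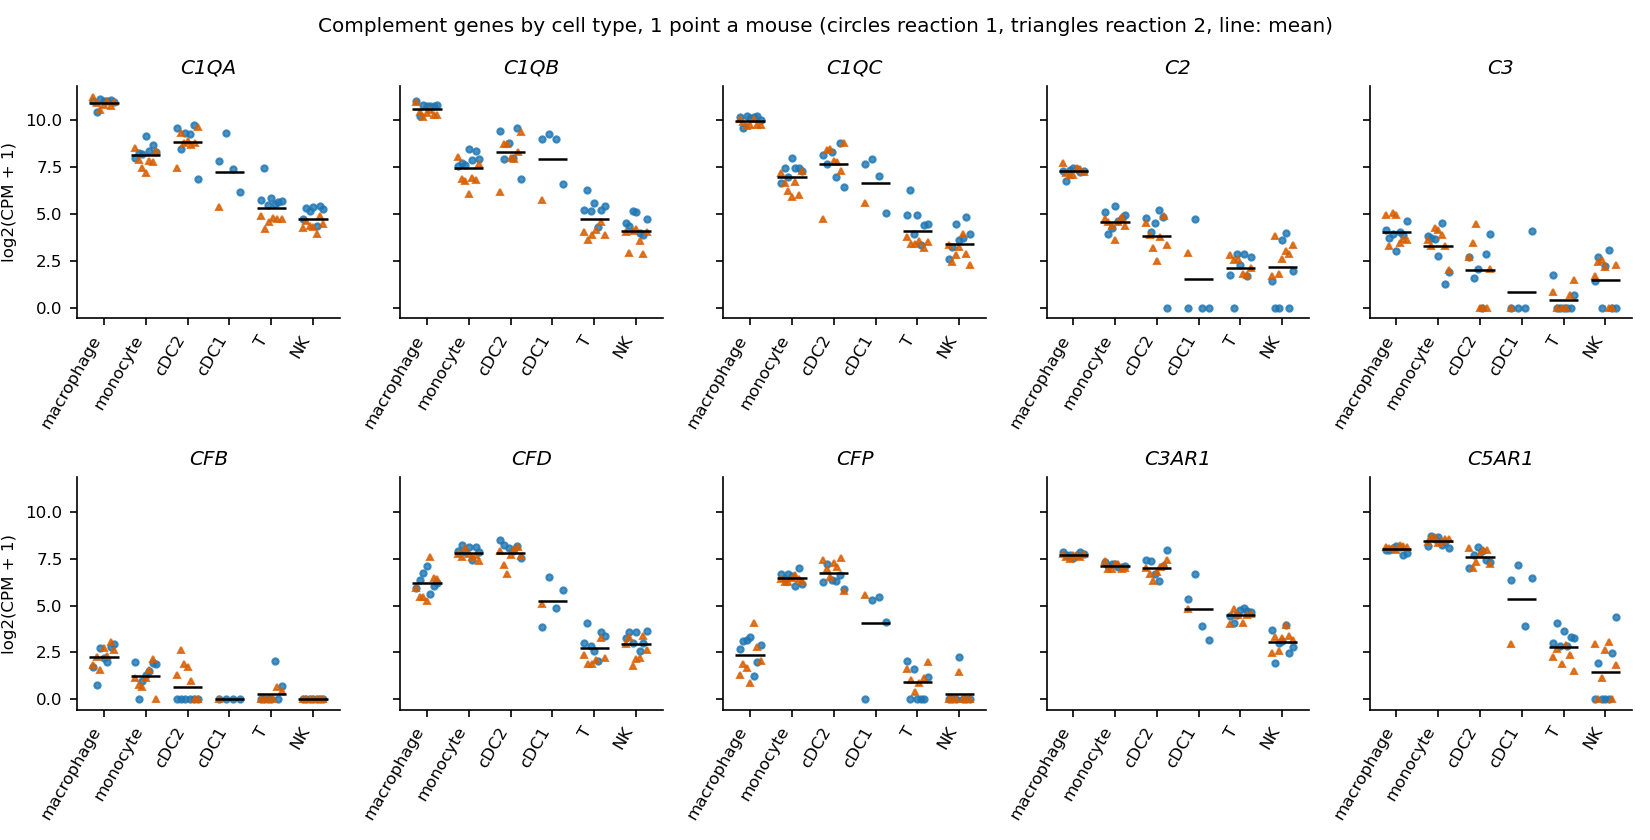
Levels of the 10 complement genes, log2(CPM + 1) on the vertical axis, in 6 gated cell types, with 1 point per mouse (circles reaction 1, triangles reaction 2) and a line at the mean. C1QA ranged from 1419.8 to 2485 CPM in macrophages and from 146 to 574 in monocytes, whereas CFP had the opposite order, with at most 15.6 in macrophages and at least 65.8 in monocytes.

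The 3 C1q chains, which assemble into the recognition subunit of the classical pathway, were the most abundant members and marked macrophages. Over 14 mice the lowest, median and highest C1QA levels were 1419.8, 2081 and 2485 CPM in macrophages and 146, 302 and 574 in monocytes. Those of C1QB were 1159, 1614 and 2095 in macrophages and 65.2, 200.4 and 349 in monocytes, and those of C1QC were 788, 1067 and 1219 against 58.5, 136 and 257. For each chain the lowest macrophage value lay above the highest monocyte value. In a comparison paired by mouse, 65.2% of 12843 genes tested differed between macrophages and monocytes at an adjusted p under 0.05 (edgeR's quasi-likelihood test with Benjamini-Hochberg adjustment, as for every adjusted p of a cell type or treatment comparison here), and all 10 members did. Of the members 7 were higher and 3 lower in macrophages, against 33.6% and 31.6% of all genes. The median log2 fold change was 0.96 over the members and 0.02 over all genes tested. C1QA was higher in macrophages by 2.72 on the log2 scale (SE 0.10, edgeR adjusted p = 4.74e-17), C1QB by 3.03 (SE 0.12) and C1QC by 2.94 (SE 0.12), each in 14 of 14 mice. Within reactions 1 and 2 alone the C1QA difference was 2.48 and 2.94.

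Most macrophages held the whole set of chains. With every cell thinned to 2000 UMIs, 91.4% of macrophages, 26.2% of monocytes and 6.86% of T and NK cells had a C1QA UMI, against 94.996%, 44.5% and 19.4% before thinning. UMIs of all 3 chains were found in 63.3% of thinned macrophages, 8.39% of monocytes and 0.176% of T and NK cells. T and NK cells are not known to make C1q, so their share, with a median of 6638.5 UMIs per cell against 7325 in macrophages, was taken as the level that free RNA gives in these droplets. Barcodes with many myeloid marker UMIs were kept out of the T and NK gates, so this measure may lie below the free RNA of all droplets. By that measure the pDC level of 11.3 CPM, the B cell level of 27.9 and the mast cell level of 36.4 (95% exact Poisson interval 18.8 to 63.6, covering counting error only) did not stand above the 30.5 of T and NK cells for C1QA. For C1QB the mast cells stood at 45.5 CPM (15 UMIs, 95% exact Poisson interval 25.5 to 75.02), above the 20.2 (18.8 to 21.8) of T and NK cells, and for C1QC they held 3 UMIs. Intermediate levels were seen in dendritic cells and in the ungated cells, where C1QA stood at 442 CPM pooled over cells.

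The chains did not keep one proportion. In macrophages C1QA, C1QB and C1QC made up 43.6%, 34.2% and 22.2% of C1q UMIs, and the C1QB share ranged over 14 mice from 30.3% to 38.9% (34.2 ± 2.26). Compared with the other macrophages of the same mouse, the C1QB share was higher by 2.47 percentage points in CXCL10 macrophages, in 13 of 14 mice (exact two-sided sign-flip permutation test, p = 0.000366, adjusted over the 6 states 0.00183). The share was also higher in cycling macrophages, by 2.32 points in 11 of 13 mice (exact adjusted p = 0.00537). It pointed the other way in GLUT1 macrophages, at -3.66 points (lower in 12 of 14 mice, exact adjusted p = 0.00183), and in IL1A/CCL20 macrophages, at -2.42 points (lower in 11 of 14, exact adjusted p = 0.00586). The differences in LYVE1 and MT1G macrophages, -0.11 and -0.17 points, were smaller than their SDs of 1.61 and 1.85 between mice. All 4 shifts had the same direction in both reactions, although the C1QB share of macrophages was itself 35.9% in reaction 1 and 32.7% in reaction 2. This measure was added after the chain levels had been seen.

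C2, the protease that joins C4b in the classical C3 convertase, followed the C1q chains. Its lowest, median and highest levels were 106, 156 and 215 CPM in macrophages and 11.4, 23.4 and 42.2 in monocytes, without overlap. The difference was 2.65 on the log2 scale (SE 0.09, edgeR adjusted p = 2.25e-17, higher in 14 of 14 mice). T and NK cells stood at 4.45 CPM, and after thinning a C2 UMI was found in 26.5% of macrophages, 4.39% of monocytes and 0.770% of T and NK cells. cDC2 had 17.6 ± 10.8 CPM (n = 13).

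C3, on which all pathways converge, was scarce. Its levels were 7.19, 13.96 and 31.9 CPM (lowest, median, highest) in macrophages and 1.42, 11.5 and 21.6 in monocytes, and the 2 ranges overlapped. Macrophages were higher by 0.54 on the log2 scale (SE 0.20, edgeR adjusted p = 0.0188, 11 of 14 mice), a call not reached in reaction 1 alone (0.50, edgeR adjusted p = 0.167). The RNA was concentrated in few cells. Only 446 of 4716 macrophages (9.46%) had any C3 UMI, and the 65 macrophages (1.38%) with at least 3 UMIs, spread over 12 mice, held 296 of the 748 C3 UMIs of the type (39.6%), with up to 16 in 1 cell. In monocytes 34 cells (1.02%) held 127 of 326 UMIs (39.0%). T cells stood at 0.596 CPM (13 UMIs in 3100 cells), and no C3 UMI was seen in 78 mature dendritic cells, 66 pDC or 77 mast cells, which allows up to 3.08, 3.76 and 9.10 CPM (3 counts of each total).

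The alternative pathway factors divided between monocytes and macrophages. CFP encodes properdin, the stabiliser of the C3 convertase, and was a monocyte and dendritic cell transcript here. Its levels were 65.8, 85.4 and 128 CPM (lowest, median, highest) in monocytes and 0.831, 4.22 and 15.6 in macrophages, far apart in every mouse. The log2 fold change in macrophages was -4.26 (SE 0.19, edgeR adjusted p = 1.60e-15), lower in 14 of 14 mice and at -4.01 and -4.52 within reactions 1 and 2. After thinning, 15.1% of monocytes, 22.5% of cDC2, 1.16% of macrophages and 0.286% of T and NK cells had a CFP UMI.

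CFD encodes factor D, the serine protease that activates factor B. Levels were 166, 225 and 296 CPM in monocytes and 36.8, 68.2 and 190.0 in macrophages, with 1 macrophage value inside the monocyte range. Macrophages were lower, with a log2 fold change of -1.72 (SE 0.15, edgeR adjusted p = 6.94e-10), in 14 of 14 mice. CFB, the factor that provides the catalytic part of the alternative convertase, was the rarest member in myeloid cells. It stood at 0.685, 3.80 and 7.41 CPM in macrophages and 0, 1.34 and 3.36 in monocytes, ranges that overlapped. Macrophages were higher by 1.39 (SE 0.28, edgeR adjusted p = 0.000165, 13 of 14 mice). NK cells held no CFB UMI in 671 cells, which allows up to 0.482 CPM, and T cells held 4 in 3100.

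The 2 anaphylatoxin receptors went in opposite directions by modest amounts. C3AR1, the receptor for C3a, stood at 181, 209.8 and 235 CPM (lowest, median, highest) in macrophages and 122, 136 and 166 in monocytes, without overlap and with an SD of 15.6 in macrophages and 13.7 in monocytes. Its log2 fold change was 0.48 (SE 0.05, edgeR adjusted p = 1.76e-09, higher in 14 of 14 mice). C5AR1, the main receptor for C5a and a classical attractant receptor of phagocytes, stood at 268, 358 and 414 CPM in monocytes and 209, 269 and 303 in macrophages, where the ranges overlapped. It was nevertheless lower in macrophages in 14 of 14 mice, by a log2 fold change of -0.51 (SE 0.05, edgeR adjusted p = 6.97e-09). Mast cells also carried C5AR1, with 51 UMIs in 77 cells or 155 CPM (95% exact Poisson interval 115 to 203). After thinning, 12 of 48 mast cells (25%, exact 95% interval 13.6 to 39.6) had a C5AR1 UMI against 1.28% of T and NK cells. The same mast cells held 12 C1QA UMIs. Macrophages held 12.49 and 14.1 C5AR1 UMIs per 100 of C1QA in the 2 reactions, and all myeloid cells 20.5 and 27.4. Over both reactions monocytes held more C5AR1 than C1QA UMIs, 10821 against 8664. The part of free RNA in the mast cell level was not tested.

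Along the axis from monocyte to macrophage the members changed at different points. Macrophages, monocytes and other myeloid cells, without the dendritic cells, were ordered by the macrophage score minus the monocyte score. Each score was the mean of ln(1 + UMIs per 10000) over its marker list. The cells were split into 8 bins, from under -1 to over 1. C1QA climbed from 121 CPM in the most monocyte-like bin to 2094 in the most macrophage-like, and already stood at 434 in the second. C2 went from 15.7 to 178 in smaller steps. CFP moved from 96.3 to 3.23 CPM, decreasing in every bin. CFD stood at 206 in bin 1, 248 in bin 2 and 223 in bin 3, and then dropped to 69.5 in the seventh. Its high point was bin 2 in reaction 1 (289.9), while in reaction 2 bins 2 and 3 (222.5 and 227) had overlapping intervals. C5AR1 had its highest level, 407, in the first bin, stood at 239 and 236 in the fifth and sixth, whose intervals overlapped, and at 282 in the last, while C3AR1 went from 131 to 231. Within reaction 2 C5AR1 stood at 281 in bin 3, 321 in bin 4 and 253 in bin 5. The bins also differed in depth, with medians of 9468, 3083.5 and 9652 UMIs per cell in bins 1, 5 and 8. Of their cells, 709 of 1726, 777 of 964 and 791 of 1529 came from reaction 1. Cells in the middle bins need not be intermediate cells, and the part of depth and reaction was not tested. These are pooled levels and a description, since the bins share mice and the score shares cells with the gates.

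**Figure D2:**
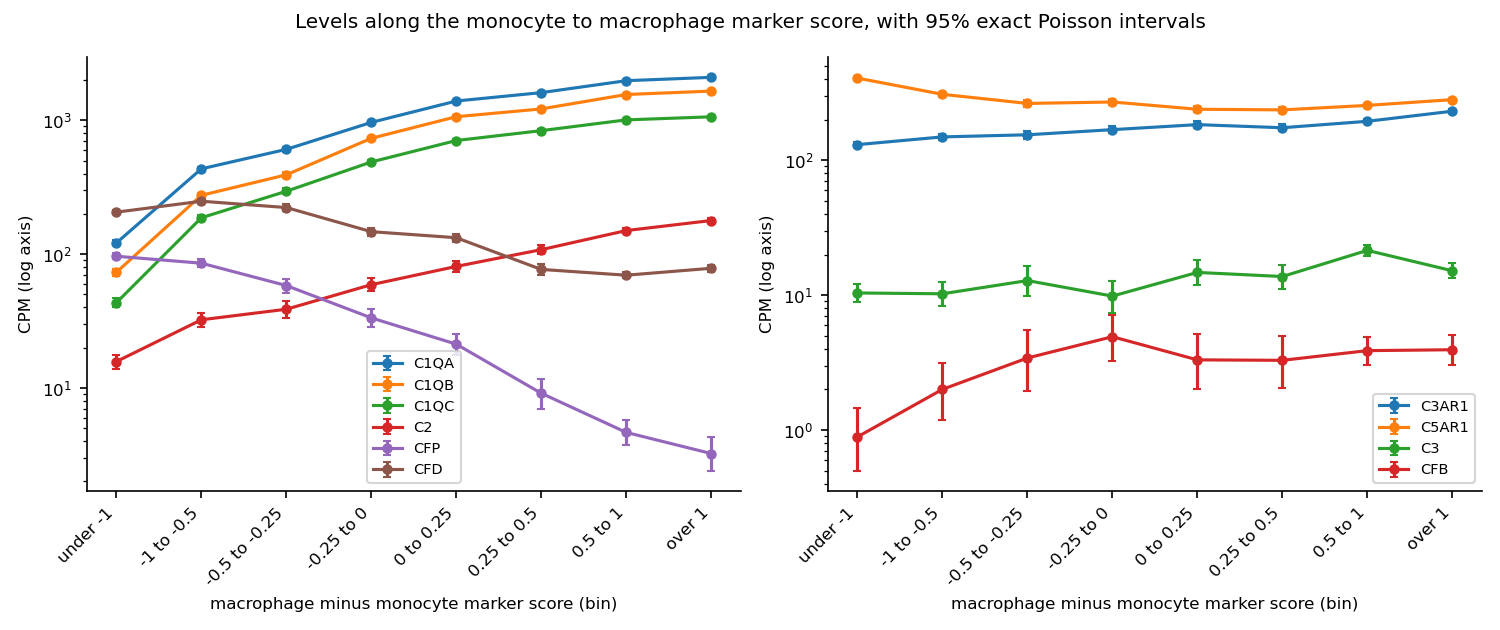
CPM (logarithmic axis) of the members in 8 bins of the macrophage minus monocyte marker score, with 95% exact Poisson intervals that cover counting error only. The cells are macrophages, monocytes and other myeloid cells, without dendritic cells. The C1q chains and C2 increased towards the macrophage end, CFP decreased from 96.3 to 3.23 CPM, and C5AR1 was low in the fifth and sixth bins (239 and 236). CFD stood at 206, 248 and 223 in bins 1 to 3, with overlapping intervals in bins 1 and 3.

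LYVE1 macrophages had higher levels of most members than the other macrophages of the same mouse. States were gated within macrophages by short marker lists, each was compared with all other macrophages of the same mouse, and a cell could pass more than 1 gate. No state was tested against another state, so the calls do not rank the states. Cells of the states were deeper, with medians from 8268.5 (MT1G) to 9625.5 UMIs (CXCL10) and 9575 in LYVE1 macrophages. The 1890 macrophages in no state had a median of 4493.5, and the part of depth was not tested. LYVE1 macrophages (1452 cells; LYVE1, FOLR2, CCL18, SELENOP and F13A1, genes of resident-type macrophages) were higher in 9 of the 10 members, where 22.7% of 11468 genes tested differed, 11.5% being higher and 11.2% lower. CFD, the factor that was low in macrophages as a whole, had 143 ± 76.1 CPM in them and was higher by 1.82 on the log2 scale (SE 0.15, edgeR adjusted p = 1.24e-09) in 14 of 14 mice. CFP was higher by 1.42 (edgeR adjusted p = 0.00156, 11 of 14 mice) from 9.04 ± 8.21 CPM, still below the monocyte level. C2 was higher by 0.89 (edgeR adjusted p = 3.08e-09), and C1QA, C1QB and C1QC by 0.62, 0.59 and 0.55, all in 14 of 14 mice. All 3 chains were seen together in 74.7% of thinned LYVE1 macrophages. C3AR1 was higher by 0.30 (edgeR adjusted p = 6.47e-05), whereas CFB stood at 0.062 (SE 0.27) and was not called. The calls of C3 (0.38, edgeR adjusted p = 0.0373) and C5AR1 (0.17, edgeR adjusted p = 0.0435) were lost in each reaction alone, without the mouse block, without the low-count filter and with gates at doubled marker minimums. In reaction 2 alone 5 members were called, where 1271 of 11080 genes tested were. The calls of CFP (1.58, edgeR adjusted p = 0.0646) and C3AR1 (0.21, edgeR adjusted p = 0.0711) were lost there as well.

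The CXCL10 state, marked by interferon-induced genes (CXCL10, CXCL9, CXCL11, IFIT1, IFIT3, GBP1 and IDO1; 398 cells), had higher classical pathway transcripts and a lower C5a receptor. Of 8 members tested 4 were higher and 1 was lower, where 16.2% of 9096 genes differed, 9.03% being higher and 7.18% lower. C1QB was higher by 0.51 (SE 0.07, edgeR adjusted p = 1.38e-06, 13 of 14 mice), C1QC by 0.42, C2 by 0.41 and C1QA by 0.32. C5AR1 had a log2 fold change of -0.35 (SE 0.10, edgeR adjusted p = 0.0142) and was lower in 12 of 14 mice. In reaction 1 alone 3 members kept an adjusted p under 0.05, where 704 of 10692 genes tested were called. C1QA stood there at 0.23 and C2 at 0.38. In reaction 2 alone the C5AR1 call was lost at -0.26. With gates at doubled marker minimums C2 lost its call (0.32, edgeR adjusted p = 0.170).

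The IL1A/CCL20 state (609 cells; IL1A, CCL20, CXCL1, CXCL5 and IL6, inflammatory cytokines) carried the highest C5AR1 level of the macrophage states, 356 ± 72.1 CPM. C5AR1 was higher by 0.67 (SE 0.08, edgeR adjusted p = 4.67e-07) in 13 of 14 mice, where 13.3% of 9456 genes differed, 8.85% being higher and 4.45% lower. C2 (0.32) and C3AR1 (0.25) were also higher, and C3 was lower at -1.04 (SE 0.25, edgeR adjusted p = 0.00567, 13 of 14 mice). After thinning, 1.43% of IL1A/CCL20 macrophages had a C3 UMI (exact interval 0.621 to 2.81), overlapping the 2.84% (2.34 to 3.40) of all macrophages. Before thinning the shares were 5.91% and 9.46%. The part of the few macrophages rich in C3 UMIs in the C3 fold change was not tested. The C1q chains did not pass the test, with log2 fold changes between -0.12 and 0.034. Calls other than that of C5AR1 were lost in 1 or both reactions alone, and those of C2 and C3AR1 also with gates at doubled marker minimums and without the low-count filter.

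C3 was also lower in the GLUT1 state (372 cells; SLC2A1, ADM, HILPDA, NDRG1 and BNIP3, genes induced by low oxygen) and in the MT1G state (254 cells; metallothionein genes). In GLUT1 macrophages it had 5.97 ± 5.80 CPM and a log2 fold change of -1.26 (SE 0.31, edgeR adjusted p = 0.00248, lower in 13 of 14 mice), where 36% of 8206 genes differed, 19.6% being higher and 16.5% lower. C1QB (-0.45, edgeR adjusted p = 0.000528) and C3AR1 (-0.34, edgeR adjusted p = 0.0242) were lower as well. C5AR1 was higher by 0.39 (edgeR adjusted p = 0.00164, 10 of 14 mice), but with gates at doubled marker minimums its log2 fold change was -0.05. Of these calls only that of C1QB was kept in both reactions alone, and it was lost without the mouse block. The calls of C3 and C3AR1 were also lost with gates at doubled marker minimums (edgeR adjusted p = 0.178 and 0.0519). In MT1G macrophages, tested in 10 mice where 3.73% of 11487 genes differed (1.36% higher, 2.38% lower), C3 was the 1 member called, at -1.43 (SE 0.35, edgeR adjusted p = 0.0179, lower in 10 of 10). It was not called in either reaction alone, without the mouse block (-1.20, edgeR adjusted p = 0.228) or with gates at doubled marker minimums (-1.91, edgeR adjusted p = 0.0625), and DESeq2 called 0 members in this state. After thinning, a C3 UMI was found in 1.39% of GLUT1 (exact interval 0.454 to 3.22) and 2.10% of MT1G macrophages (0.686 to 4.83). These intervals overlapped that of all macrophages, 2.84% (2.34 to 3.40). Before thinning the shares were 5.38%, 6.69% and 9.46%. The part of the few macrophages rich in C3 UMIs in these fold changes was not tested.

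Cycling macrophages (689 cells; MKI67, TOP2A and other division genes) were lower in 7 of the 9 members tested, in 13 mice, where 35.9% of 11159 genes differed, 16.1% being higher and 19.8% lower. CFD had a log2 fold change of -0.91 (SE 0.14, edgeR adjusted p = 1.02e-05), C5AR1 of -0.82 (SE 0.07, edgeR adjusted p = 3.54e-10) and C3AR1 of -0.65 (SE 0.07, edgeR adjusted p = 7.10e-09). Both receptors were lower in 13 of 13 mice. C2 (-0.45), C1QA (-0.37), C1QC (-0.24) and C1QB (-0.18) differed less, and the C1QB call was lost in each reaction alone, without the mouse block and with gates at doubled marker minimums. The C1QC call was lost in reaction 2 alone (-0.13, edgeR adjusted p = 0.144). C3 did not pass the test and stood at 0.29 (SE 0.19, edgeR adjusted p = 0.247).

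**Figure D3:**
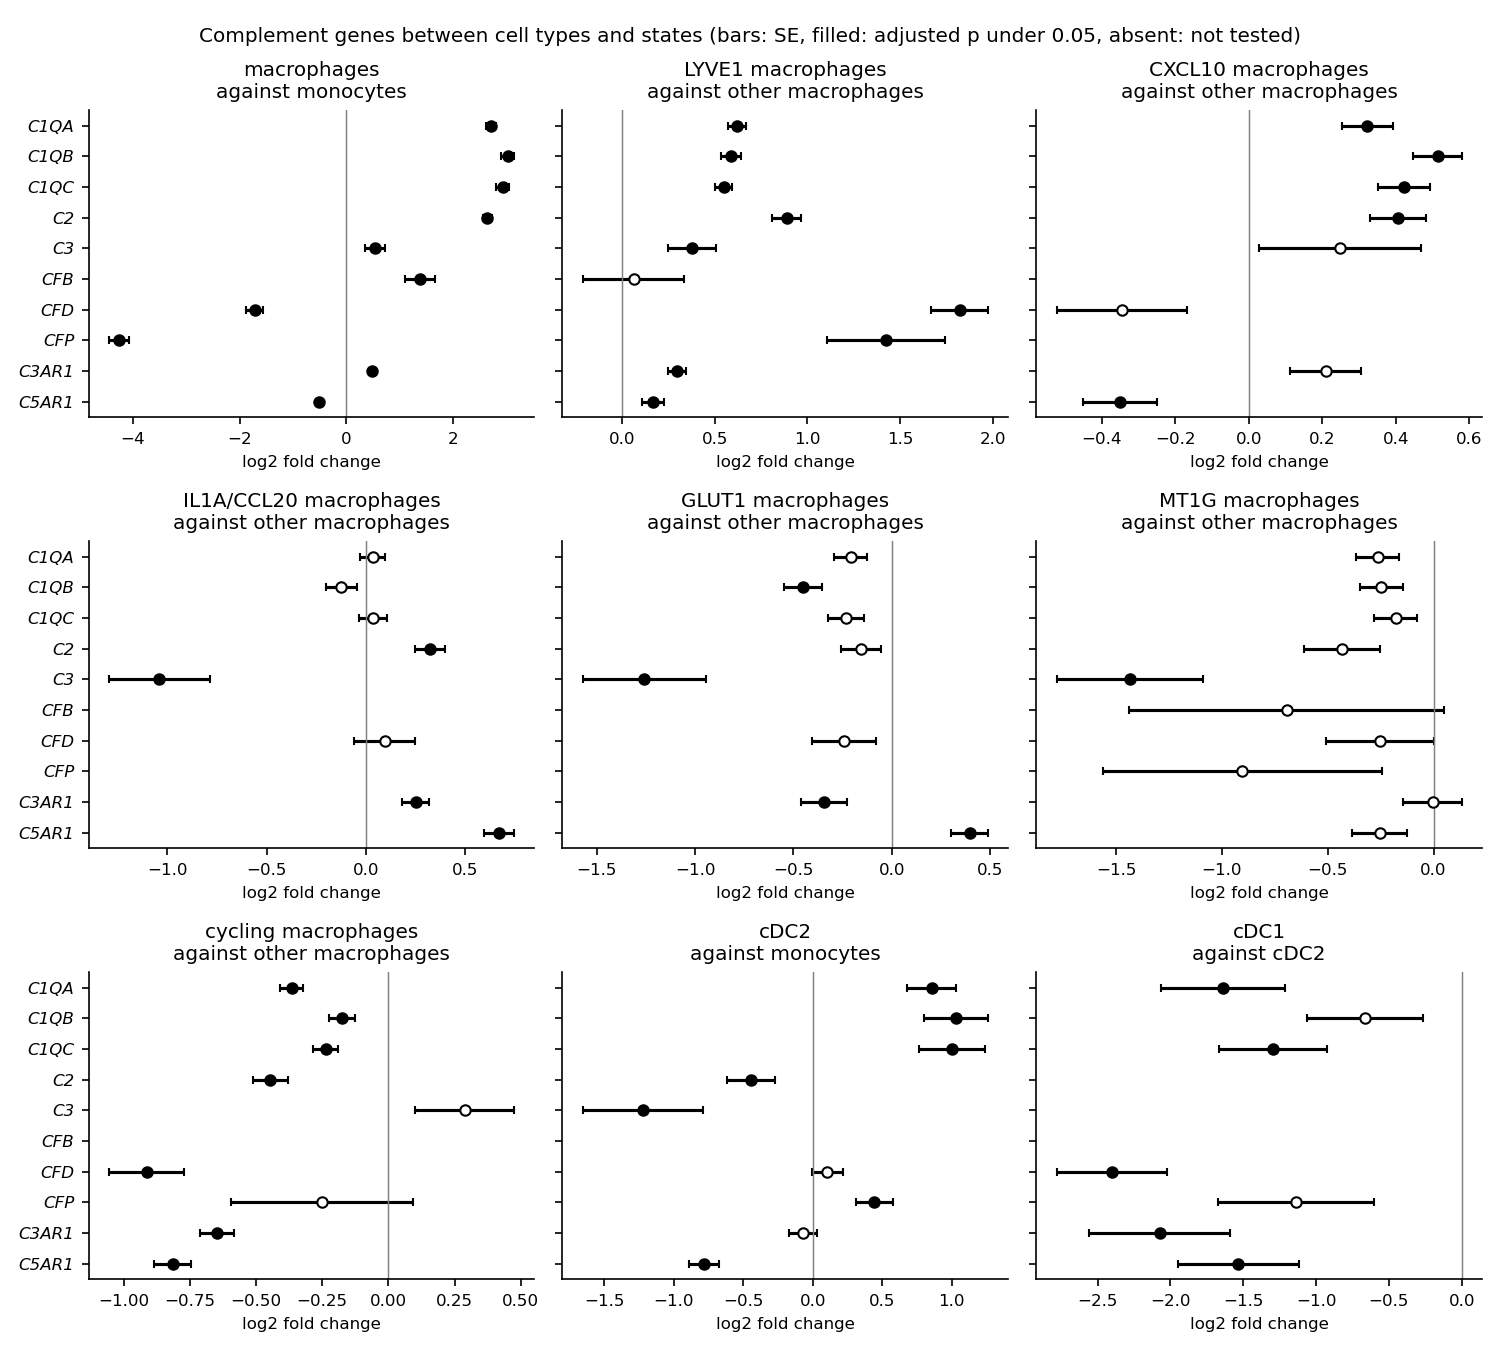
Log2 fold changes (points, horizontal axis, each panel on its own scale) with SE (bars) of the 10 members in 9 comparisons paired by mouse. Filled points have an edgeR adjusted p under 0.05, open points do not, and untested members are absent. CFD stood at -1.72 in macrophages against monocytes and at 1.82 in LYVE1 against other macrophages.

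Dendritic cells kept part of the complement set. In cDC2 (CD1C, FCER1A and related markers), compared with monocytes in 13 mice, 4 of 9 members tested were higher and 3 lower, where 35.4% of 10076 genes differed, 17.2% being higher and 18.2% lower. C1QA stood at 116, 483 and 862 CPM (lowest, median, highest) in cDC2, overlapping the monocyte range, and was higher by 0.86 (SE 0.18, edgeR adjusted p = 0.000530, 11 of 13 mice). C1QB was higher by 1.03 and C1QC by 1.001. The macrophage markers summed to 1703 CPM in cDC2, with none of the 10 at 0, and the monocyte markers to 4189, of which VCAN held 1366. Of the cDC2 markers CD1C stood at 375 CPM and FCER1A at 8.07. The part of monocyte and macrophage RNA in the C1q and other member levels of cDC2 was not tested. C5AR1 was lower in 13 of 13 mice at -0.78 (SE 0.11, edgeR adjusted p = 3.00e-06), and C3 was lower at -1.22 (edgeR adjusted p = 0.0303, lost in reaction 2 alone). CFP, at 112 ± 44.5 CPM, was higher by 0.44 (edgeR adjusted p = 0.0113), yet by 0.04 in reaction 1 alone (edgeR adjusted p = 0.923). C2 (-0.45, edgeR adjusted p = 0.0450) lost its call in either reaction alone, under DESeq2, without the mouse block, with gates at doubled marker minimums and in cells above 1000 genes. CFD (0.11, SE 0.11) and C3AR1 (-0.070, SE 0.10) did not pass the test.

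In cDC1 (CLEC9A, XCR1 and related markers), compared with cDC2 in the 5 mice with 10 cells of both, 5 of 7 members tested were lower and none was higher, where 18.9% of 3713 genes differed, 8.65% being higher and 10.3% lower. CFD stood at 13.4, 28.5, 33.5, 56.3 and 89.9 CPM in the 5 mice, each below its cDC2 median of 242. Its log2 fold change was -2.40 (SE 0.38, edgeR adjusted p = 0.000292). C3AR1 levels were 8.04, 14.2, 26.8, 40.3 and 103 CPM and C5AR1 levels 6.70, 14.2, 80.6, 88.4 and 141, the same mouse, untreated replicate 4, being highest for both. Their log2 fold changes were -2.07 (edgeR adjusted p = 0.00580) and -1.53 (edgeR adjusted p = 0.0142). These levels rest on few UMIs, since the 5 mice held 10 to 19 cDC1 each. All 127 cDC1 together held 58 CFD, 32 C3AR1 and 53 C5AR1 UMIs. C1QA, at 40.2, 72.3, 171, 228 and 642 CPM, was lower at -1.64 (edgeR adjusted p = 0.0113) and C1QC at -1.29 (edgeR adjusted p = 0.0195). Without untreated replicate 1 the adjusted p of C1QA was 0.0644 (0.0533 without the mouse block), and without maraviroc replicate 7, the 1 mouse from reaction 2, C1QC stood at -0.84 with 0.0963. C1QB was at -0.66 and was not called (edgeR adjusted p = 0.269), and C1QB made up 43.2% of the 542 C1q UMIs of cDC1 against 32.2% of 6679 in cDC2. Mature dendritic cells were sufficient in 2 mice and were not tested. Pooled over 78 cells they held 56.5 CPM of CFP (95% exact Poisson interval 42.6 to 73.6) and 8.22 of C3AR1.

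Lymphoid cells held little RNA of the 10 members, and C3AR1 was higher in T than in NK cells of every mouse tested. The T set held 3100 cells and the NK set 671. The 1105 cells that passed both marker lists were in neither set, so the comparison does not cover them. Over 13 mice with 10 cells of both, the lowest, median and highest C3AR1 levels were 14.95, 21.9 and 27.7 CPM in T cells and 2.76, 7.77 and 14.6 in NK cells, without overlap. T cells were higher in 13 of 13 mice by 1.39 on the log2(CPM + 1) scale (1.58 in reaction 1 and 1.16 in reaction 2; exact two-sided sign-flip permutation test, p = 0.000244, the smallest it can give). The comparison was chosen after the levels had been seen, and all 10 members were compared. C5AR1 differed by 1.33 (8 of 13 mice, exact p = 0.0195; 2.03 in reaction 1 and 0.51 in reaction 2) at means over mice of 6.80 against 3.78 CPM. NK levels rest on few UMIs, 21 and 28 of C3AR1 and 10 and 11 of C5AR1 in reactions 1 and 2. The lowest NK level of C5AR1 was 0. C3 stood at a mean over mice of 0.475 CPM in T and 2.48 in NK cells. The difference of -0.97 (exact p = 0.0332) did not pass 0.05 after Benjamini-Hochberg adjustment over the 10 genes. C1QA, taken as the measure of free RNA, was itself higher in T cells by 0.56 (11 of 13 mice, exact p = 0.00464). For each 100 C1QA UMIs, T cells held 45.1 and 80.2 C3AR1 UMIs in reactions 1 and 2, and NK cells 25 and 37.3. Macrophages held 10.5 and 10.4 and all myeloid cells 13.7 and 15.2. Over both reactions monocytes held 4241 C3AR1 against 8664 C1QA UMIs. The part of free RNA in the T and NK cell levels was not tested.

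Within T cells 288 of 454 C3AR1 UMIs lay in cells with a UMI of FOXP3, the transcription factor of regulatory T cells. In 12 mice its lowest, median and highest levels were 24.2, 35.8 and 56.5 CPM in T cells with a FOXP3 UMI and 5.88, 14.5 and 18.7 in the other T cells, again without overlap. This split too was chosen after levels had been seen. The difference was 1.43 on the log2(CPM + 1) scale, in 12 of 12 mice (exact two-sided sign-flip permutation test, p = 0.000488, the smallest it can give). C1QA went the other way in the same cells, with 26.7 ± 6.60 CPM against 44.03 ± 22.5 and lower in 10 of 12 mice, a log2 difference of -1.03 in reaction 1 and of -0.12 in reaction 2, while that of C3AR1 was 1.498 and 1.37. Pooled, C3AR1 stood at 34.7 CPM in 1052 T cells with FOXP3, 11.2 in 850 with CD8A or CD8B but no FOXP3, 9.24 in 490 with CD4 only and 17.9 in 708 with none of these. Cells with a FOXP3 UMI had a median of 6904.5 UMIs against 6011, 7072.5 and 4211 in the other sets.

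**Figure D4:**
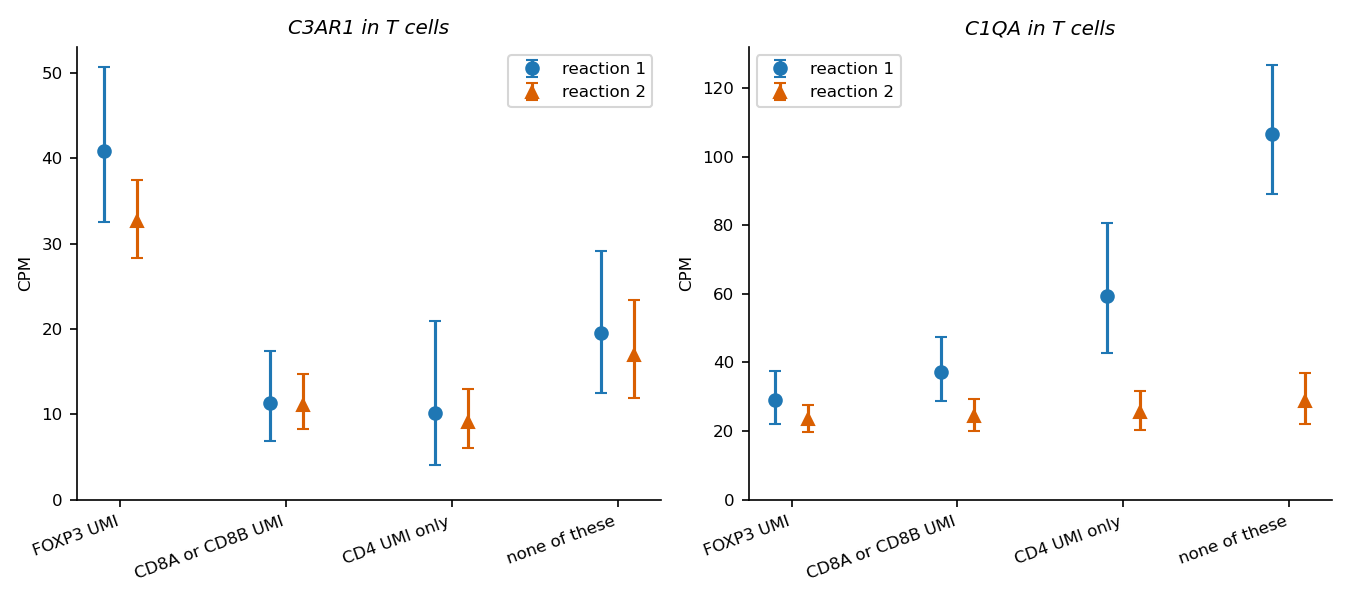
C3AR1 (left) and C1QA (right) in 4 sets of T cells, CPM on the vertical axis with 95% exact Poisson intervals for counting error only, pooled over mice by reaction. C3AR1 was highest in T cells with a FOXP3 UMI, at 40.9 CPM in reaction 1 and 32.7 in reaction 2, whereas C1QA stood there at 29.1 and 23.4, in reaction 2 with intervals overlapping those of the other sets.

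CFB was the 1 member with its highest level in barcodes with tumor markers (KRT8, KRT18, KRT19, CAV1, CAVIN1, TM4SF1 and CCN1). The 22 barcodes with these markers and no other type's markers held 9 CFB UMIs, or 41.9 CPM (95% exact Poisson interval 19.2 to 79.6), all 9 in reaction 2. In a wider set, chosen after that value had been seen, the 319 barcodes past the tumor list held 108 CFB UMIs, or 50.01 CPM, in 60 barcodes (18.8%), against 2.09 CPM and 1.41% of the other singlets. In the 8 mice with 10 such barcodes, 7 of them from reaction 1, the lowest, median and highest levels were 12.55, 31.1 and 63.4 CPM, all above the 1.12 to 3.59 of the other cells (8 of 8 mice, exact two-sided sign-flip permutation test, p = 0.00781, the smallest it can give). A PTPRC UMI was found in 61.1% of these barcodes, which also held 252 CPM of C1QA. Tumor barcodes, immune barcodes and mixtures of their RNA cannot be told apart here. C3 and C2 stood at 2.78 and 27.3 CPM in the same barcodes, below the 9.43 and 60.7 of the others.

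A list of 44 other complement genes gave the setting. In macrophages against monocytes 23 of them could be tested, of which 12 were higher and 8 lower, against 33.6% and 31.6% of all genes tested. CLU, a fluid-phase inhibitor of the terminal complex, had a log2 fold change of -5.74 and FCN1, the ficolin of monocytes and a lectin pathway starter, of -5.20, while C4BPB, a chain of the C4b inhibitor, and C9, a pore component, were higher by 4.49 and 3.07 at 7.56 and 20.8 CPM in macrophages. In LYVE1 macrophages 10 of 22 were higher and 5 lower (11.5% and 11.2% of all genes), led by C4BPB (3.83), C9 (2.50), the C3b receptor CR1 (1.72) and FCN1 (-1.41). In CXCL10 macrophages 4 of 21 were higher and 6 lower (9.03% and 7.18% of all genes), and the C1 inhibitor SERPING1 (0.99) stood against C9 (-2.12) and the collectin COLEC12 (-0.79). In GLUT1 macrophages 4 of 20 were higher and 8 lower (19.6% and 16.5% of all genes), with C4BPB (-1.998) and CR1 (-0.95) lower and the integrin chain ITGAX (0.81) higher.

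MT1G macrophages had 3 of 21 lower (2.38% of all genes), C9 (-2.81), COLEC12 (-0.73) and the receptor CD93 (-0.49). In IL1A/CCL20 macrophages 4 of 20 were higher and 2 lower (8.85% and 4.45% of all genes), led by C4BPB (-2.25), FCN1 (-1.14), ITGAX (0.62) and COLEC12 (0.40). Cycling macrophages had 2 of 22 higher and 12 lower (16.1% and 19.8% of all genes), led by ITGAX (-1.63), C9 (-1.22), COLEC12 (-0.92) and C5 (0.88). For cDC2 against monocytes 3 of 19 were higher and 8 lower (17.2% and 18.2% of all genes), led by CLU (-2.18), CR1 (-1.97), CD93 (-1.21) and the complement receptor VSIG4 (1.07). For cDC1 against cDC2 2 of 11 were higher and 4 lower (8.65% and 10.3% of all genes), led by FCN1 (-3.03), ITGAM (-1.91), VSIG4 (-1.61) and the membrane inhibitor CD59 (1.38). All named genes had an edgeR adjusted p under 0.05 and the largest log2 fold changes of the list in their comparison.

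Maraviroc left no complement gene called. With reaction as a term, 0 of 13419 genes in all myeloid cells, 0 of 11616 in macrophages and 0 of 10405 in monocytes passed the adjusted threshold (percent called 0 in each; edgeR's unadjusted p was under 0.05 for 508, 441 and 456 genes, and DESeq2 called 4, 0 and 0). C1QA in macrophages stood at 1419.8, 2111 and 2485 CPM (lowest, median, highest) in 7 untreated and 1736, 2058 and 2215 in 7 maraviroc mice, ranges that overlapped. Its log2 fold change was 0.033 (SE 0.11). Those of C1QB, C1QC, C2, C3, C3AR1 and C5AR1 lay between -0.052 and 0.057, and those of CFD and CFP were 0.22 (SE 0.36) and 0.18 (SE 0.55). Both turned between reactions, CFD from -0.67 (SE 0.24) in reaction 1 to 1.09 (SE 0.42) in reaction 2 and CFP from -1.06 (SE 0.43) to 1.51 (SE 0.75), none of them called.

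CFB gave the lowest p of the members. In macrophages its levels were 0.685, 2.58 and 5.61 CPM in untreated and 3.01, 5.54 and 7.41 in maraviroc mice, with overlap. The log2 fold change was 0.84 (SE 0.32, unadjusted p = 0.0163 and adjusted p = 0.9999 in edgeR), 0.74 in reaction 1 and 0.93 in reaction 2, and between 0.68 and 1.05 when each mouse was left out in turn. In all myeloid cells it was 0.72 (SE 0.26, edgeR unadjusted p = 0.0126). These levels rest on 159 UMIs in macrophages. The tumor markers, on which the barcodes with the highest CFB were gated, summed in macrophages to 21.7 ± 10.1 CPM in untreated and 19.5 ± 7.41 in maraviroc mice, and their part in the CFB level was not tested. In monocytes C5AR1 stood at 289, 404 and 414 CPM in untreated and 268, 342 and 381 in maraviroc mice (-0.20, SE 0.09, edgeR unadjusted p = 0.0383), and CFD at -0.21 (SE 0.10, edgeR unadjusted p = 0.0501). CFB could not be tested in monocytes at its level there.

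**Figure D5:**
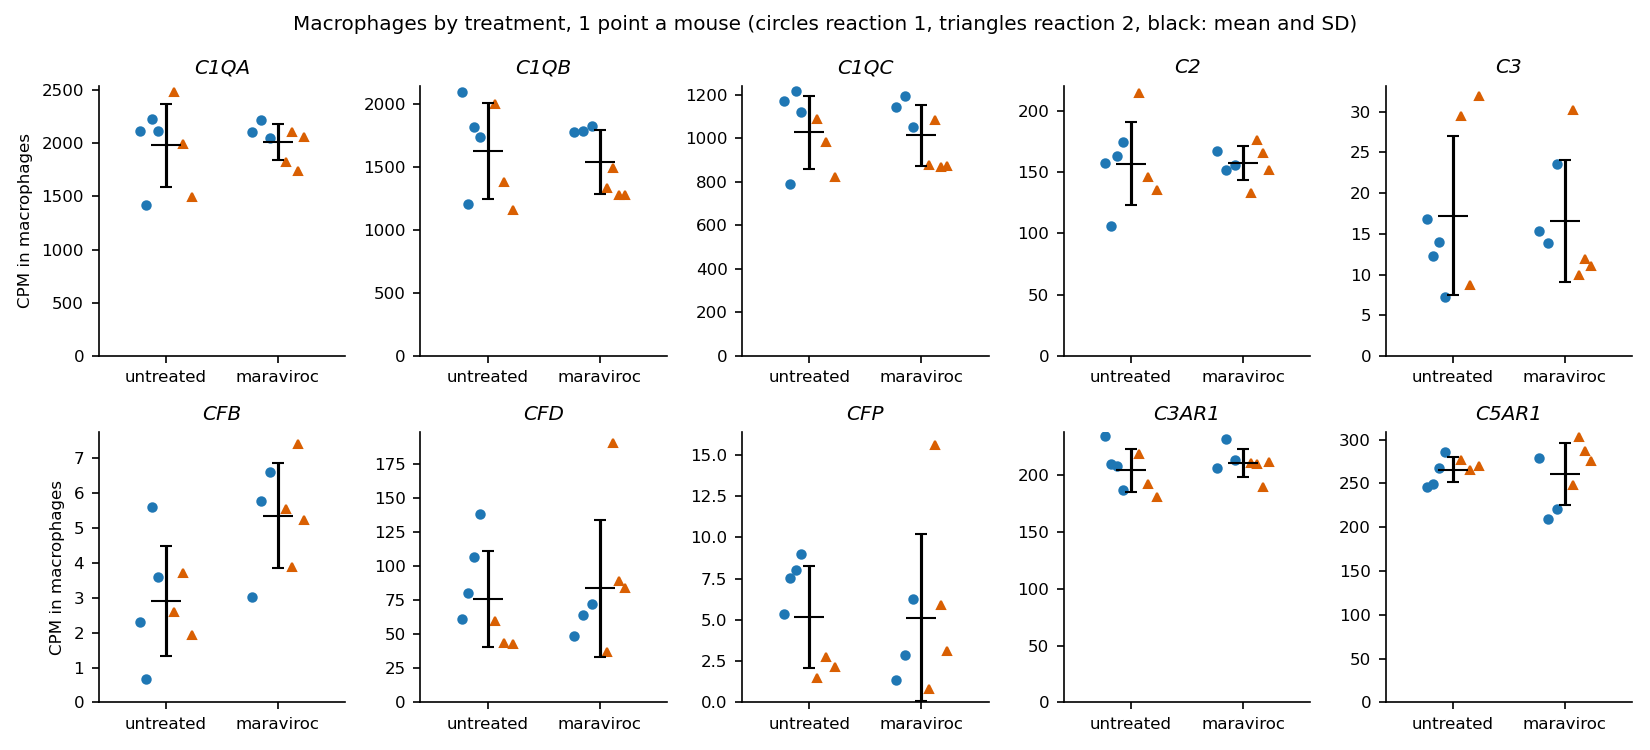
CPM of the 10 members in macrophages of 7 untreated and 7 maraviroc mice, each point a mouse (circles reaction 1, triangles reaction 2), with mean and SD in black and vertical axes from 0. The groups overlapped for every member, CFB having medians of 2.58 and 5.54 CPM and 1 maraviroc mouse in reaction 2 standing apart for CFD and CFP.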

How the data were processed

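Human CD45+ cells were profiled with the 10x Genomics 3′ kit, and the authors deposited UMI counts per gene, barcode and hashtag, made with Cell Ranger 9.0.1 on GRCh38 (their notes also name Seurat 5.1.0). From these deposited counts, barcodes with more than 600 and up to 6000 genes and an MT- share under the study's limit were kept, hashtags were called with HTODemux (Seurat 5.3.0, quantile 0.99), which left out 12316 doublets and 5673 negatives, and cells were gated by marker UMIs at thresholds set after marker totals were seen. UMIs were summed per mouse (at least 10 cells) and tested with edgeR 4.0.16 (R 4.3.3), TMM and filterByExpr, with mouse as block for cell types and reaction as term for treatment. Mice are known only through hashtags, so treatment groups come from hashtag names. DESeq2 1.42.0, each reaction, gates at doubled marker minimums, no low-count filter, cells above 1000 genes and left-out mice were alternatives. The fits were tested on simulated data. The rule for named genes was all 10 members, and of 44 other complement genes the at most 4 largest called changes per comparison, of which a gene is not reported here. Members and lists were chosen with earlier results of these data known. Python 3.11.15, numpy 2.4.6, pandas 2.3.3 and scipy 1.17.1 gave levels, intervals and permutation tests. The named intervals cover counting error only.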

Additional observations from a re-analysis of the deposited data

Results flagged for a closer look

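In 60 groups of 7 mice, 5 held a highest or lowest value whose gap to its neighbour exceeded 0.568 of the range of the group, Dixon's 95% limit for 7, which chance exceeds in about 1 of 20 groups. Maraviroc replicate 5 of reaction 2 had CFD at 189.95 CPM in its 209 macrophages, with the next mouse at 88.9, and CFP at 15.6, with the next at 6.29. LYVE1 macrophages, the state with the highest CFD, made up 51.2% of its macrophages, the largest share of the 14 mice, whose smallest was 19.97%, and their part in the value was not tested. Maraviroc replicate 6 of reaction 2 had C3AR1 at 135 CPM over all myeloid cells, below the next at 166, and macrophages were 12.9% of its myeloid cells, the lowest share. Untreated replicate 7 had C3 at 27.96 CPM over all myeloid cells, above 16.7, with macrophages at 64.5%, the highest share. Untreated replicate 1 had C1QB at 1252 CPM over all myeloid cells, above 957.

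The maraviroc difference had opposite signs in the 2 reactions for some members. On the log2(CPM + 1) scale over all myeloid cells, the effect in reaction 1 minus that in reaction 2 was 0.69 for C1QA (0.29 against -0.40; exact permutation of treatment within reaction, p = 0.0286), 0.83 for C1QB (exact p = 0.0163), 0.76 for C1QC (exact p = 0.0163) and 0.71 for C2 (exact p = 0.00490). It was -0.85 for CFD (exact p = 0.0359), and in macrophages -1.40 for CFD (exact p = 0.0465). The test used 1225 regroupings, 30 such comparisons were made, and the p-values given are unadjusted, none of them being under 0.05 after Benjamini-Hochberg adjustment over the 30. The mean share of macrophages among myeloid cells moved the same way as the C1q chains, being 42.98% in untreated and 49.4% in maraviroc mice of reaction 1 and 50.7% and 34.8% in reaction 2. Maraviroc replicate 6 of reaction 2 had the lowest share, 12.9%. The part of these shares in the C1q differences was not tested. Within macrophages alone the C1QA means were 1971 ± 371 and 2125 ± 83.4 CPM in reaction 1 and 1991 ± 493.5 and 1930.1 ± 179 in reaction 2.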

How the results depend on the processing

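Of 1161 alternatives to the tests of single members, 1005 kept direction and side of the threshold, 55 lost the call, 11 gained one and 90 changed sign, most of them in the treatment comparisons, where no member was called. For values that changed, the cause was not tested. Without the mouse block, which pairs the types of 1 mouse, LYVE1 macrophages had 1538 of 9736 genes tested called and MT1G macrophages 133 of 9393. Without that block 2 members were called in GLUT1 (2515 of 6355 genes) and 2 in IL1A/CCL20 macrophages (862 of 7710 genes). In MT1G macrophages 0 were called and C3AR1 stood at 0.073. Treatment was never paired, since a mouse had 1 treatment. Pooled levels moved in 102 of 1160 alternatives, and shares of cells moved beyond their interval in 358 of 1380. For levels a move was a change beyond 1 SD over mice, or beyond the exact Poisson interval where no SD could be taken. Depth limits the scarce members, CFB resting on 159 UMIs, CFP on 195 and C3 on 748 in macrophages.

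For maraviroc in all myeloid cells, reaction 1 alone gave C1QA 0.24, C1QB 0.22, C1QC 0.23, C2 0.26, C3 0.28 and CFP -0.67 on the log2 scale, and reaction 2 alone gave CFD 0.45 and C5AR1 0.079. DESeq2 called 4 genes and leaving out the low-count filter 1. In macrophages, C1QC was -0.023 with no reaction term. Reaction 1 alone gave C1QB 0.041, C3 0.47, CFD -0.67 and CFP -1.06, and reaction 2 alone C1QA -0.018, C1QC -0.029, C2 -0.054 and C5AR1 0.070. Without the filter 43 genes were called, and at a hashtag quantile of 0.95 C2 was -0.051 and C3 0.093. In monocytes, 5 genes were called and C1QB was 0.13 in reaction 1 alone, CFP was 0.18 and C3AR1 0.0080 in reaction 2 alone, and 47 genes were called without the filter.

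In reaction 1 alone, genes called numbered 1221 of 10440 tested for LYVE1, 704 of 10692 for CXCL10 and 1697 of 9922 for GLUT1. They were 90 of 10743 for MT1G, 375 of 10477 for IL1A/CCL20 and 2062 of 10498 for cycling macrophages. For cDC2 against monocytes they were 1105 of 8549. Members called numbered 3, 2, 0 and 2 for CXCL10, GLUT1, MT1G and IL1A/CCL20 macrophages and 4 for cDC2, with C2 at 0.00054 in GLUT1 macrophages and C3AR1 at 0.035 in cDC2. In reaction 2 alone, genes called numbered 1271 of 11080 tested for LYVE1, 691 of 8226 for CXCL10 and 1747 of 7628 for GLUT1. They were 123 of 10545 for MT1G and 638 of 8489 for IL1A/CCL20. Members called numbered 5, 0 and 2 for LYVE1, MT1G and IL1A/CCL20, with C3AR1 at 0.19 in MT1G and CFD at -0.017 in IL1A/CCL20. With doubled marker minimums C5AR1 was -0.047 in GLUT1, MT1G had 0 members and 128 of 10904 genes called, and IL1A/CCL20 had 2 and 595 of 11310. In MT1G macrophages DESeq2 called 0 members and 645 of 11487 genes, with C3AR1 at 0.044, and no filter gave 3 and 679 of 25592. C3AR1 was 0.00038 there above 1000 genes. Without the filter C1QA and C1QC were -0.051 in IL1A/CCL20.

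Leaving out each mouse in turn moved the maraviroc log2 fold changes over all myeloid cells from -0.089 to 0.090 for C1QA, -0.13 to 0.056 for C1QC, -0.12 to 0.034 for C2, -0.35 to 0.065 for C3, -0.16 to 0.083 for CFD, -0.17 to 0.20 for CFP and -0.045 to 0.017 for C3AR1. In macrophages they ran from -0.037 to 0.14 for C1QA, -0.12 to 0.085 for C1QB, -0.046 to 0.070 for C1QC, -0.063 to 0.12 for C2, -0.23 to 0.21 for C3, -0.15 to 0.41 for CFD, -0.63 to 0.50 for CFP and -0.098 to 0.0016 for C5AR1. In monocytes they ran from -0.21 to 0.042 for C1QA, -0.26 to 0.16 for C1QB, -0.24 to 0.059 for C1QC, -0.21 to 0.0037 for C2 and -0.093 to 0.080 for CFP. For cDC1 against cDC2, 396 to 660 genes and 4 to 5 members were called. The lowest gene count was 396 of 3494 tested without untreated replicate 1, the highest 660 of 3495 without untreated replicate 4.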

Other observations

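For each member the genes with the most similar pattern were sought over the 9 gated types with at least 5 mice, by the Pearson correlation of mean log2(CPM + 1) among 6045 genes reaching 50 CPM in 1 type. These are descriptions with no test, since the types share mice and libraries. The C1q chains were nearest to SCN9A (r = 0.993 with C1QA), RAB5C (0.9897 with C1QB) and RNF217 (0.991 with C1QC), and the scavenger receptor COLEC12 was second for C1QA at 0.991. C2 was nearest to AL162414.1 (0.994), followed by the matrix protease MMP14 (0.993) and the integrin chain ITGB5 (0.991). CFP was nearest to FCN1 (0.9899), a monocyte ficolin that is itself a starter of the lectin pathway. CFD was nearest to RTN4 (0.993) and the fatty acid receptor CD36 (0.991), C3 to SDCBP (0.976) and CFB to the iron exporter SLC40A1 (0.992). C3AR1 was nearest to NPTN (0.996) and C5AR1 to BRI3 (0.997).

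The ungated cells, 3324 of 3867 of which came from reaction 1, held 442 CPM of C1QA, 122 of C5AR1 and 8.76 of CFB at a median of 2455 UMIs. Their CFB level was above that of every gated type other than the barcodes with tumor markers. Of the 319 barcodes past the tumor list, all but the 22 gated as tumor were left ungated by the gates. The ungated CFB level therefore includes their CFB UMIs, and it was not taken without them.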
